A study of Mus musculus with 6 samples.

Results

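The autophagy machinery was taken here as 37 listed genes that start, build, load and regulate the autophagosome, from the ULK1 initiation complex to the transcription factors TFEB and TFE3. The genes were chosen by their known function, with earlier results of these data known. Of these, 36 had a probe set with a gene name on the array, each 1 probe set among 22206, and the cargo receptor Optn was not analysed here. None of the 36 passed the test between genotypes after adjustment over all probe sets, and their differences ran from -0.61 to 0.58 log2 units.

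The deficient group held Treg cells of female mice that were Foxp3 Cre/wt and homozygous for floxed alleles of both neddylation E2s (Ube2m fl/fl and Ube2f fl/fl), and the control group held those of female Foxp3 Cre/wt mice. Both groups carried the Foxp3-driven YFP-Cre on 1 of 2 X chromosomes, so that the sorted CD4+YFP+ cells were a mosaic fraction beside normal Treg cells in the same animal. Cells came from spleen and peripheral lymph nodes of mice aged 8 to 12 weeks, with 2 to 3 mice pooled per sample, and 3 samples per group were measured on Clariom S arrays. The study's text calls its arrays those of individual mice in one place and of pooled mice in another, and the samples of a group were taken as separate. A p-value here covers the spread of these samples only. Across all probe sets the first principal component (39.9% of the variance) separated the genotypes, and the second (29.5%) set the second deficient and the first control array apart from the rest.

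In autophagy, a double membrane grows around cytoplasmic cargo, closes and fuses with a lysosome. Its growth needs a pair of ubiquitin-like conjugation cascades, in which ATG12 and the ATG8 proteins (LC3 and GABARAP) pass from an E1-like to E2-like enzymes, much as NEDD8 passes through its own E1 to UBE2M and UBE2F. T cells use autophagy for survival and metabolic balance, and Treg cells depend on it for their stability. Array signals measure transcripts, and neither ATG8 lipidation nor autophagic flux was measured.

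TFEB and TFE3 bind the CLEAR element, whose core is TCACGTG, a form of the E-box CACGTG. The promoters of the members were therefore searched for these letters and for GTAAACA, a form of the forkhead element. Both strands were searched, from 250 bases before to 50 bases after the start. Other forms of these motifs were not searched. RefSeq promoters of 30 of the 37 listed members were searched. TCACGTG stood in those of Atg3, Atg7 and Atg14, which is 10% of the 30 members against 4.29% of 27025 genes with RefSeq promoters (3.77% of 32851 promoters). CACGTG, which every TCACGTG contains, stood in those 3 and in Atg5, 13.3% of the members against 8.09% of these genes. GTAAACA stood in 0 of the 30 member promoters and in 4.05% of these genes. A match is a description of letters and not of binding. The stretches around the matches are shown because 3 of the 4 genes encode enzymes or partners of the conjugation cascades (build GRCm38.p6, 5′ to 3′ on the gene's strand, motif letters in capitals).
Atg3, chr16:45158695-45158803, plus strand: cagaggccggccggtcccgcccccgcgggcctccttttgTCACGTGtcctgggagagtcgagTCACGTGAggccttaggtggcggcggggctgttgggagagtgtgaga
Atg7, chr6:114670924-114671009, plus strand: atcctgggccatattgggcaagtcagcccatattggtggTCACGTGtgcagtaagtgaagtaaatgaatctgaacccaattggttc
Atg5, chr10:44268285-44268338, plus strand: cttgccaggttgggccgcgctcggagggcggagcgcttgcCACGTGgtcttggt
Atg14, chr14:47568418-47568447, minus strand: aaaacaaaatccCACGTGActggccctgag
In Atg3 the second match reads as TCACGTG on both strands, and in Atg14 the core lies on the opposite strand, across the start. The start shown for Atg7 lies inside the annotated span of the gene.

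On these 4 genes the groups overlapped. Atg3, the E2-like enzyme for the ATG8 proteins, had log2 signals of 11.43, 11.40 and 11.56 in the deficient arrays against 11.44, 11.60 and 11.34 in the control arrays. Atg14, the autophagy-specific subunit of the PI3K complex, had 5.16, 4.95 and 5.33 in the deficient arrays against 5.14, 5.08 and 5.22 in the control arrays. Both genotypes had the same mean in Atg14, and in Atg3 the difference was 0.00 (95% interval -0.39 to 0.39). Atg5 had 8.89, 9.14 and 8.23 in the deficient arrays against 8.93, 9.28 and 8.75 in the control arrays, a difference of -0.23 (95% interval -0.84 to 0.37). The third deficient array was the lowest of the 6 for Atg5, the partner to which ATG12 is joined, and the values of Atg7 are given with the conjugation enzymes.

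Signals and differences below are on the log2 scale, where a difference of 1 is a 2-fold change, and differences are deficient minus control. Of the 36 members, 0 were higher and 0 were lower in the deficient arrays at an adjusted p under 0.05 (limma, Benjamini-Hochberg over all probe sets), where 0.581% of all 22206 probe sets were higher and 2.27% were lower. By the methods' t-test 0 members passed after adjustment and 0 had an unadjusted p under 0.05, and the lowest adjusted p of a member was 0.434. On that same test 12.1% of all probe sets had an unadjusted p under 0.05. After adjustment it called only 1 of the 22206 probe sets higher and 5 lower. Its adjusted count of 0 members therefore carries little weight. At an unadjusted p under 0.05 in limma, 1 member was higher (Atg2a) and 3 were lower (Gabarap, Gabarapl1 and Calcoco1), which is 2.78% and 8.33% of the members, against 5.24% and 7.62% of all probe sets. The same 4 were the members whose groups did not overlap (1 above and 3 below), against 8.22% of all probe sets with every deficient value above the controls and 9.97% with every deficient value below. These shares of the members were near or under the background. Signal from a bulk sample cannot tell fewer cells of a type from less RNA per cell.

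The members' differences were as small as those of the array as a whole. Their median was -0.01, with 16 positive, 19 negative and 1 at 0, against 0.02 over all probe sets. The median size of a difference was 0.203 for the members and 0.193 for all probe sets, and 27 of the 36 members were under 0.3, where 67.4% of all probe sets were. The smallest difference that passed the adjusted test among the 632 called probe sets was 0.797 in size, above that of every member.

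**Figure D1:**
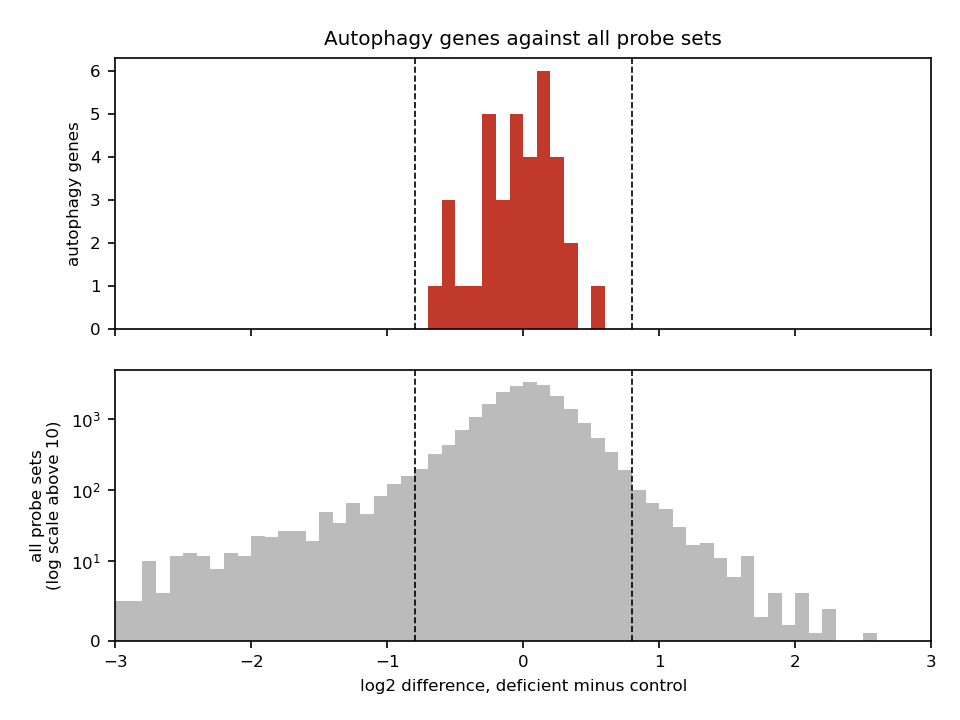
Numbers of autophagy genes (upper panel, 36 genes) and of all probe sets (lower panel, logarithmic above 10) per 0.1-wide step of the log2 difference, deficient minus control. Dashed lines mark 0.797 on either side, the smallest size among the called probe sets, and every autophagy gene lies between them.

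How much change the arrays leave room for differed between members. The standard error ran from 0.164 for Atg4b to 0.403 for Atg7, with a median of 0.230, against 0.217 over all probe sets. The 95% interval stayed within 1 log2 unit of 0 for 29 of the 36 members, where 79.6% of all probe sets did, and within a 1.5-fold change either way for 8 members, where 26.1% did. For the remaining members the interval did not leave out a 1.5-fold change in at least 1 direction. A further limit was brightness. The olfactory receptor genes, which T cells are not known to use, gave a dim level of 5.39 as the 95th percentile of their 1091 probe sets. Ulk1, Atg13, Atg14, Wipi1, Atg4c and Map1lc3a lay at or under it in both genotypes. These were 6 of the 36 members, where 52.8% of all probe sets were as dim. The sizes and shares given for all probe sets are thus those of a dimmer background, and equally bright probe sets were not compared.

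**Figure D2:**
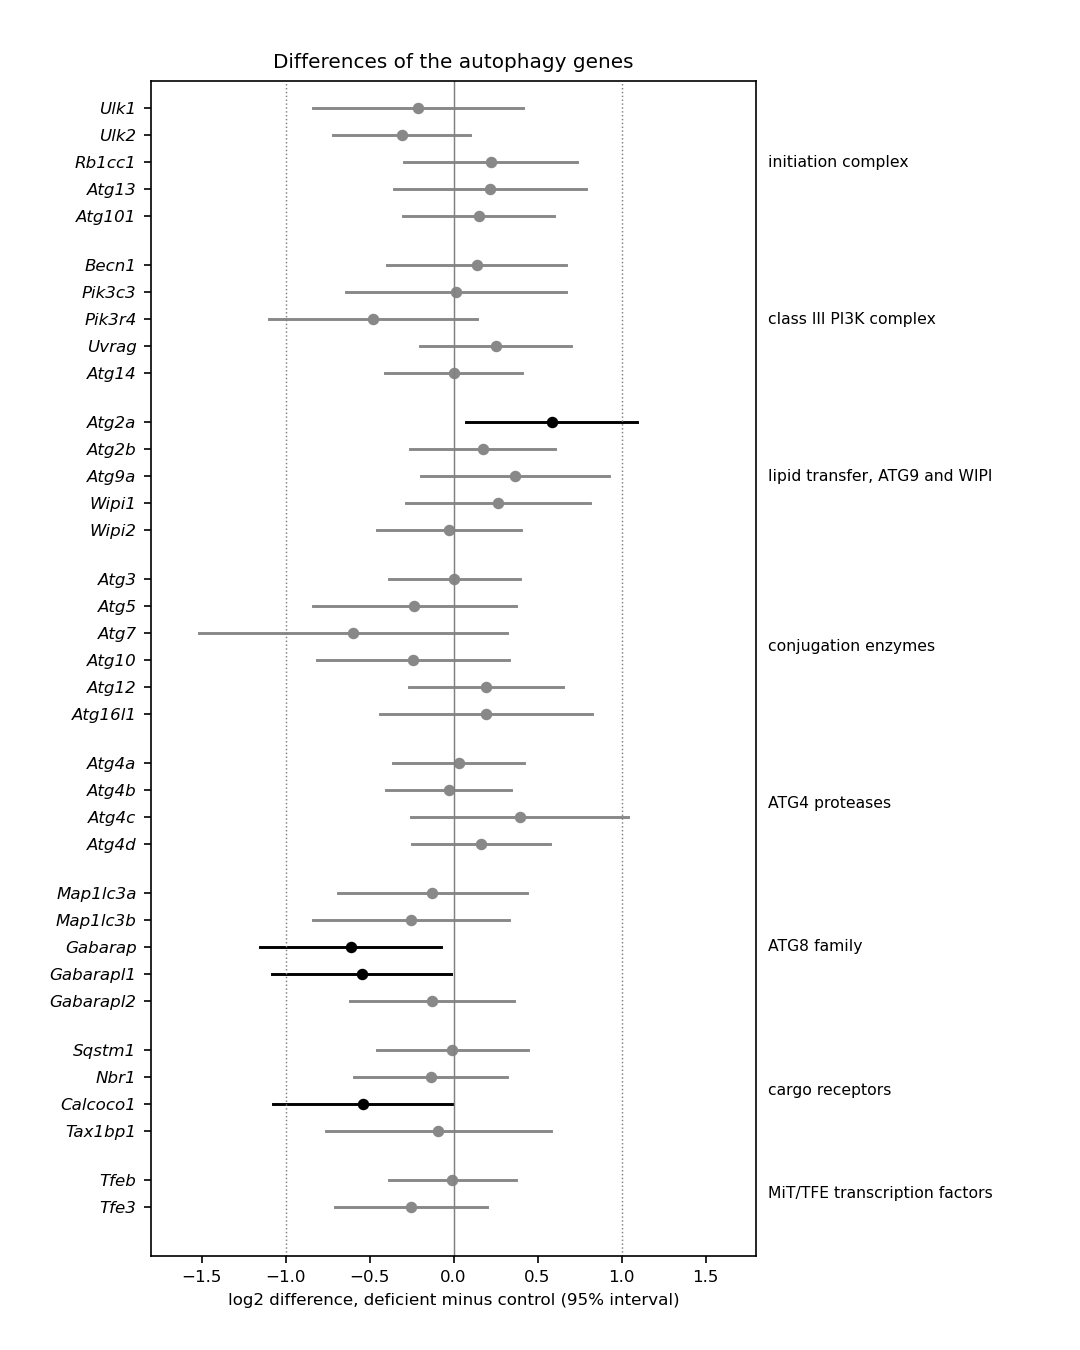
Log2 differences, deficient minus control, of the 36 measured autophagy genes by role (points), with 95% intervals from limma over 3 deficient and 3 control arrays (bars). Black marks the 4 genes with an unadjusted p under 0.05 (Atg2a, Gabarap, Gabarapl1 and Calcoco1), and dotted lines mark 1 log2 unit either way.

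The initiation complex, the kinases ULK1 and ULK2 with their scaffold RB1CC1 and the adaptors ATG13 and ATG101, had 5 of 5 genes measured and 0 called, with a median difference of 0.15. Ulk2 had 8.26, 8.05 and 8.04 in the deficient arrays against 8.48, 8.55 and 8.25 in the control arrays. The highest deficient value lay just above the lowest control value, and the difference was -0.31 ± 0.179 (SE; adjusted p = 0.556). Rb1cc1 averaged 10.01 ± 0.09 in the deficient arrays and 9.79 ± 0.40 in the control arrays (SD, n = 3 each), with the deficient values inside the control range, and its difference was 0.22. The other 3 were Ulk1 at -0.21 (95% interval -0.84 to 0.41), Atg13 at 0.22 and Atg101 at 0.15, and the 3 deficient arrays spread more widely for Ulk1 (SD 0.57) than the 3 control arrays (SD 0.07).

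The class III PI3K complex makes the lipid PI3P at the site of membrane growth. It had 5 of 5 genes measured, 0 called and a median difference of 0.01. Pik3r4, its regulatory subunit VPS15, had 8.37, 8.60 and 7.67 in the deficient arrays against 8.84, 8.36 and 8.88 in the control arrays. The third deficient array was the lowest of the 6 and the groups overlapped, and the difference was -0.48 ± 0.272 (SE; adjusted p = 0.547), or -0.21 without that array. Uvrag, a partner of Beclin 1, had 11.55, 11.81 and 11.65 in the deficient arrays against 11.67, 11.15 and 11.44 in the control arrays, a difference of 0.25 (adjusted p = 0.706). Becn1 itself differed by 0.14 (95% interval -0.40 to 0.67), and Pik3c3, the catalytic subunit VPS34, by 0.01 (95% interval -0.64 to 0.67).

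Of the genes for lipid transfer and membrane supply, 5 of 5 were measured and 0 were called, and their median of 0.26 was the highest of the 8 roles. Atg2a, which channels lipid into the growing membrane, had 6.94, 7.40 and 6.72 in the deficient arrays against 6.21, 6.53 and 6.57 in the control arrays. Every deficient value was above every control value, and the second deficient array was the highest. Atg2a averaged 7.02 ± 0.35 in the deficient arrays and 6.44 ± 0.20 in the control arrays (SD, n = 3 each), a difference of 0.58 ± 0.224 (SE; limma, unadjusted p = 0.0290, adjusted p = 0.296; exact permutation p = 0.1, the smallest 3 against 3 can give). It was 0.28 without deficient array 2 and control array 1 together. Its paralog Atg2b differed by 0.17 (95% interval -0.26 to 0.60). Atg9a, the scramblase on the seed vesicles, had 9.05, 9.52 and 8.77 in the deficient arrays against 9.02, 8.78 and 8.44 in the control arrays. These groups overlapped, and the difference was 0.37 (adjusted p = 0.637), which became 0.16 without the second deficient array and 0.21 without the third control array. Wipi1, at the dim level, differed by 0.26 and Wipi2, a PI3P reader that recruits ATG16L1, by -0.03.

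The conjugation enzymes and their partners had 6 of 6 genes measured, 0 called and a median of -0.12. Atg7, the E1-like enzyme of both cascades, had 6.18, 7.36 and 5.51 in the deficient arrays against 7.02, 6.77 and 7.05 in the control arrays. The deficient arrays held both the highest and the lowest of the 6 values, with an SD of 0.94 against 0.15 in the control arrays. The difference was -0.60 ± 0.403 (SE; adjusted p = 0.639), the widest error of any member. It was -1.10 without the second deficient array (adjusted p = 0.0752) and -0.18 without the third. Atg10, the E2-like enzyme for ATG12, had 7.60, 8.20 and 7.52 in the deficient arrays against 8.39, 7.83 and 7.82 in the control arrays, a difference of -0.24 (adjusted p = 0.799). Atg12, the ubiquitin-like protein that is joined to ATG5, differed by 0.19 (95% interval -0.27 to 0.65), and Atg16l1, which places their conjugate on the membrane, by 0.19 (95% interval -0.44 to 0.82).

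The ATG4 proteases trim the ATG8 proteins before conjugation and release them afterwards. All 4 genes were measured, 0 were called, and the median was 0.10. Atg4b, the broadest of these enzymes, was the most precisely measured member, with 9.72, 9.70 and 9.64 in the deficient arrays against 9.79, 9.65 and 9.71 in the control arrays. The difference was -0.03 (95% interval -0.40 to 0.34), so that its interval lay within a 1.5-fold change either way. Atg4c had 3.33, 4.23 and 4.33 in the deficient arrays against 3.60, 3.32 and 3.79 in the control arrays, all at the dim level, a difference of 0.39 (adjusted p = 0.670) that ran from 0.21 to 0.71 as single arrays were left out. Atg4d differed by 0.16 (adjusted p = 0.818) and Atg4a by 0.03.

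The ATG8 family, the proteins that are joined to the membrane lipid and bind cargo receptors, had 5 of 5 genes measured, 0 called and 5 negative differences, with a median of -0.25 against 0.02 over all probe sets. All 5 stayed negative after quantile normalization and after median centring, but not when 1 array was left out: Gabarapl2 was at 0.07 without control array 3, and Map1lc3a at 0.05 without deficient array 3 and at 0.08 without control array 2. Gabarap, a partner of many cargo receptors and of the ULK1 complex, had 14.10, 13.67 and 13.49 in the deficient arrays against 14.13, 14.73 and 14.24 in the control arrays. Every deficient value was below every control value, although the first array of each genotype differed by only 0.03. The means were 13.75 ± 0.31 and 14.37 ± 0.32 in deficient and control arrays (SD, n = 3 each), a difference of -0.61 ± 0.237 (SE; limma, unadjusted p = 0.0300, adjusted p = 0.301; exact permutation p = 0.1). This was a 1.53-fold lower signal with a 95% interval of -1.15 to -0.07. Gabarapl1 had 6.18, 5.86 and 5.44 in the deficient arrays against 6.20, 6.64 and 6.28 in the control arrays. Its order of arrays was that of Gabarap, with the third deficient array lowest and the second control array highest, and its difference was -0.55 ± 0.235 (SE; limma, unadjusted p = 0.0456, adjusted p = 0.372; exact permutation p = 0.1). It was -0.35 without the third deficient array.

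The other ATG8 genes differed less. Map1lc3b, the LC3 that is most used as an autophagosome marker, had 11.27, 11.93 and 11.02 in the deficient arrays against 11.66, 11.45 and 11.87 in the control arrays. The deficient arrays held both extremes, and the difference was -0.25 (95% interval -0.84 to 0.33). Gabarapl2 differed by -0.13 (95% interval -0.62 to 0.36) and the dim Map1lc3a by -0.13 (95% interval -0.69 to 0.44). The 250 bases before the start of Gabarap and Gabarapl1, the pair of ATG8 genes with the lowest p, held none of the 3 sequences searched. Other forms of the motifs, the forkhead element among them, were not searched. These bases are shown with no capitals (build GRCm38.p6, 5′ to 3′).
Gabarap, chr11:69991120-69991369, plus strand: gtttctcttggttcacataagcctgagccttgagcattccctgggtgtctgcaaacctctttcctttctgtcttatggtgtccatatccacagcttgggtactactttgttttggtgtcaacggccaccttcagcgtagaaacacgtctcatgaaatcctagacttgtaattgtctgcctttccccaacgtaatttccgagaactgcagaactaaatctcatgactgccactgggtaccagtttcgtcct
Gabarapl1, chr6:129532942-129533191, plus strand: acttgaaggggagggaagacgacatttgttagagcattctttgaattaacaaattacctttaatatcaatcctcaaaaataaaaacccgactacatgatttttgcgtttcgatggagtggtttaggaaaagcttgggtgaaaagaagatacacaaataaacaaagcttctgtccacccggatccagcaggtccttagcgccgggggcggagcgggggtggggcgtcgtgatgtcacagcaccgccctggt

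**Figure D3:**
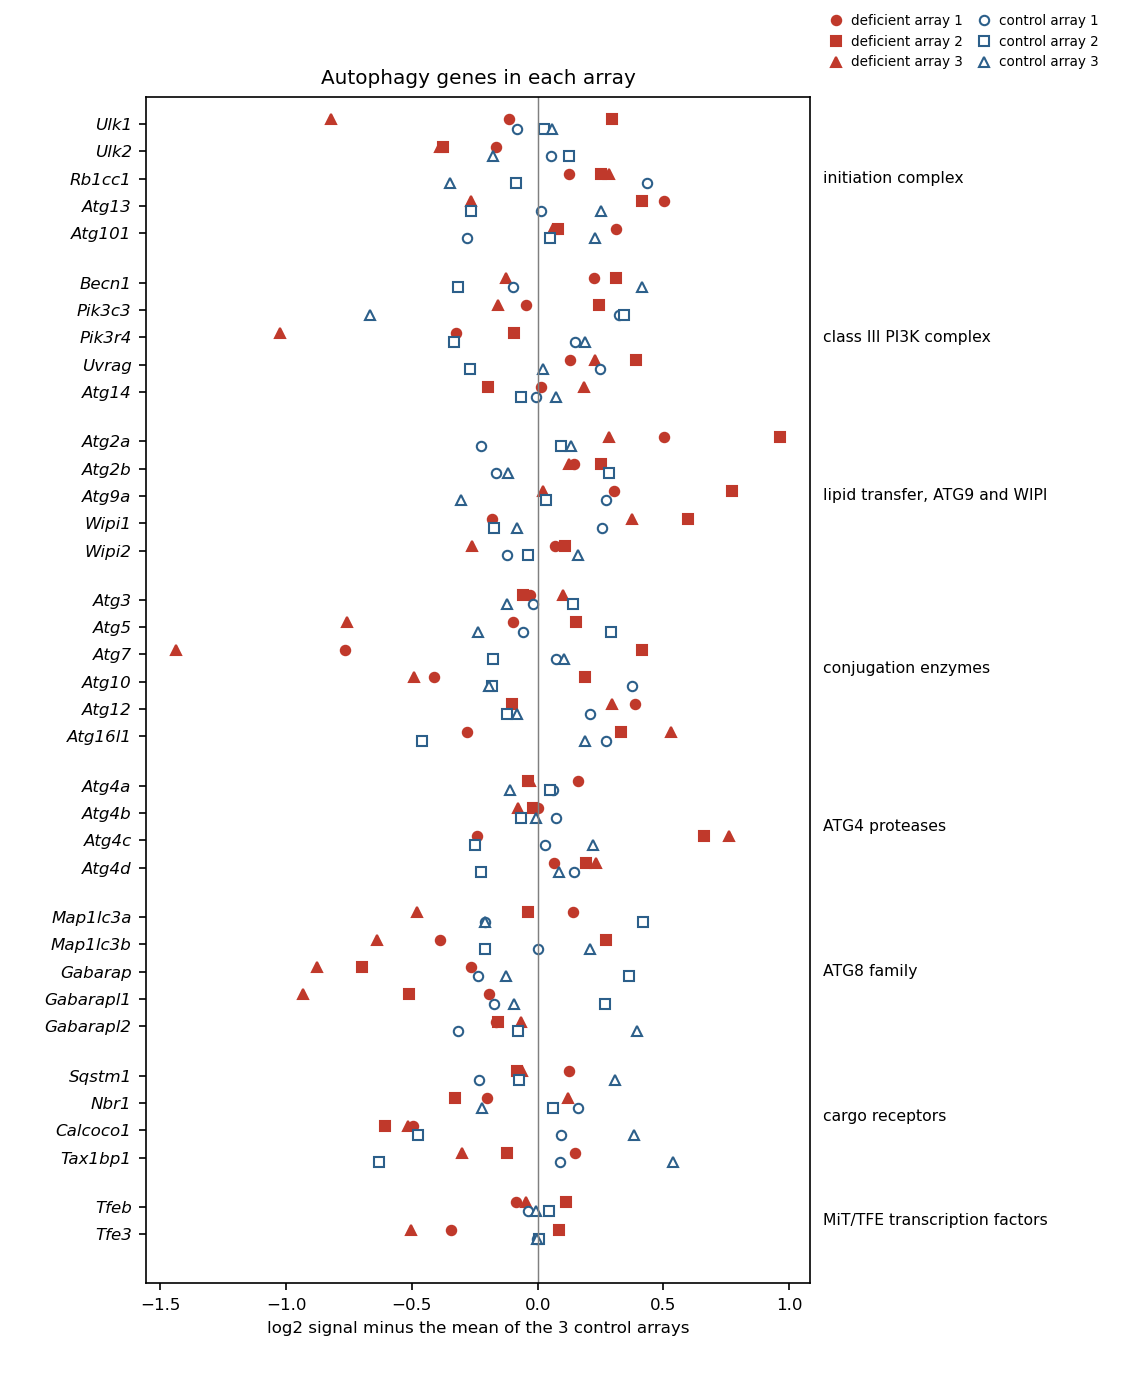
Log2 signal of each of the 36 measured autophagy genes in each array, minus the mean of the 3 control arrays (filled red, deficient; open blue, control; shape gives the array number), by role. The groups are apart only for Atg2a, Gabarap, Gabarapl1 and Calcoco1, and the third deficient array (red triangle) is the lowest of the 6 for 13 genes, Atg7 and Ulk1 among them.

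The cargo receptors tie cargo to the ATG8 proteins. Of 5 listed genes 4 were measured and 0 were called, with a median of -0.11. Calcoco1, a receptor for selective turnover of endoplasmic reticulum, had 8.96, 8.85 and 8.94 in the deficient arrays against 9.55, 8.98 and 9.84 in the control arrays. The deficient values lay close together below a wide control range, and the second control array came within 0.02 of the highest deficient one. The difference was -0.54 ± 0.236 (SE; limma, unadjusted p = 0.0483, adjusted p = 0.382; exact permutation p = 0.1), and -0.35 without the third control array. Sqstm1, the receptor p62, had 11.56, 11.35 and 11.37 in the deficient arrays against 11.20, 11.36 and 11.74 in the control arrays. The deficient values lay inside the control range, with a difference of -0.01 (95% interval -0.46 to 0.45). Nbr1, a receptor that works beside p62, averaged 10.19 ± 0.23 in the deficient arrays and 10.33 ± 0.20 in the control arrays (SD, n = 3 each), a difference of -0.14 (adjusted p = 0.875). Tax1bp1, a receptor for ubiquitinated cargo, had a mean of 13.58 ± 0.23 in the deficient arrays and 13.67 ± 0.59 in the control arrays (SD, n = 3 each), a difference of -0.09. The 4 differences were negative, and all but that of Calcoco1 turned positive under some alternative. Sqstm1 was at 0.09 after quantile normalization and at 0.03, 0.02 and 0.15 without deficient array 2, deficient array 3 or control array 3. Tax1bp1 was at 0.015 without deficient array 3 and at 0.18 without control array 3, and Nbr1 at 0.04 without deficient array 2 and control array 1 together.

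The transcription factors that raise lysosomal and autophagy genes when nutrients are short, TFEB and TFE3, were measured by 2 of 2 genes with 0 called. Tfeb had 6.10, 6.30 and 6.14 in the deficient arrays against 6.15, 6.23 and 6.18 in the control arrays, a difference of -0.01 (95% interval -0.39 to 0.37) that became 0.07 after quantile normalization. Tfe3 had 7.19, 7.62 and 7.03 in the deficient arrays against 7.53, 7.54 and 7.53 in the control arrays. Its 3 control arrays agreed to 0.01 while the deficient arrays lay on both sides of them, and the difference was -0.25 (95% interval -0.71 to 0.20; adjusted p = 0.707).

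The third deficient array was the lowest of the 6 for 13 of the 36 members (36.1%), where it was the lowest for 17% of all probe sets, and the second deficient array was the highest for 9 members (25.0%), where it was the highest for 18.0%. The median deviation of the members from the control means was -0.04, 0.11 and -0.07 in deficient arrays 1 to 3 and 0.02, -0.07 and 0.01 in control arrays 1 to 3, so that the ranges of both genotypes overlapped. Without the second deficient and the first control array, which stood apart on the second principal component, 0 members were called in either direction and 2 had an unadjusted p under 0.05 in limma.

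Beyond the members, 77 further genes of the pathway in 5 lists were examined, of which 73 were measured. At an adjusted p under 0.05, 1 of the 73 was higher and 2 were lower, where 0.581% of all probe sets were higher and 2.27% were lower, so that these counts were near the background. At an unadjusted p under 0.05 in limma, 3 were higher and 11 lower, 4.11% and 15.1% of the 73 against 5.24% and 7.62% of all probe sets. Their median was -0.10 against 0.02 over all probe sets. Groups did not overlap for 2 genes on the higher and 16 on the lower side, 2.74% and 21.9% of the genes against 8.22% and 9.97% of all probe sets. Of the 73 genes, 12 lay at or under the dim level in both genotypes, where 52.8% of all probe sets did. The shares of all probe sets, here and for the single lists below, are thus those of a dimmer background. Equally bright probe sets were not compared.

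**Figure D4:**
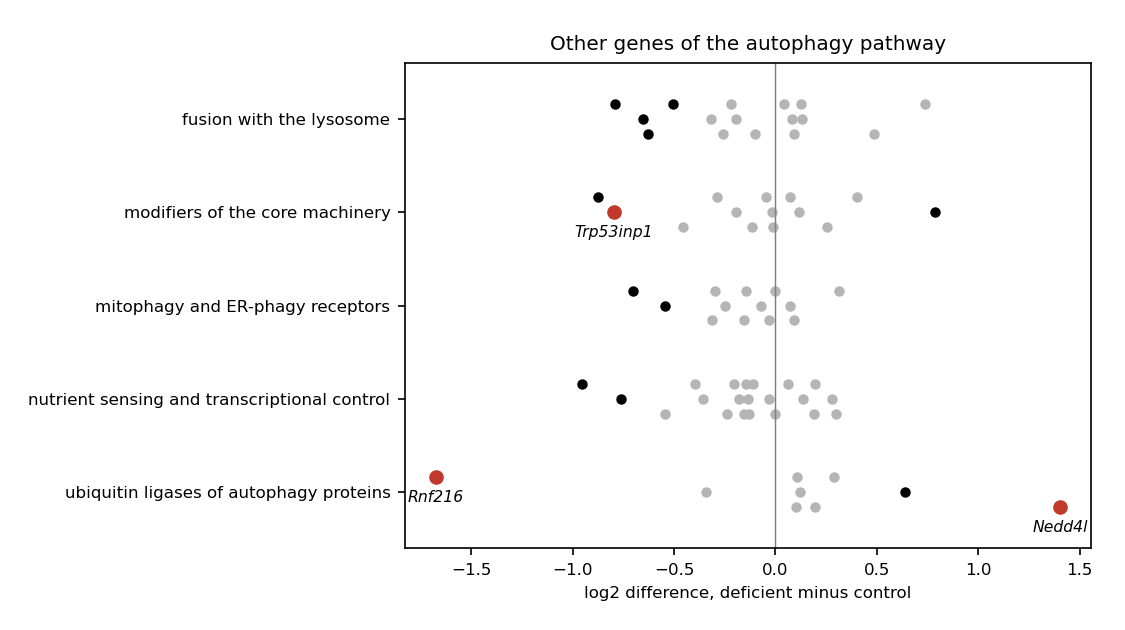
Log2 differences, deficient minus control, of the 73 measured further genes of the pathway in 5 lists, 1 point per gene (vertical offsets within a list only part the points). Red marks the 3 genes with an adjusted p under 0.05, Rnf216 and Trp53inp1 below 0 and Nedd4l above, and black the other 11 with an unadjusted p under 0.05.

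Among ubiquitin ligases of autophagy proteins, 9 of 10 listed genes were measured, with 1 higher and 1 lower. Nedd4l, a ligase known to ubiquitinate ULK1, had 9.76, 9.15 and 9.03 in the deficient arrays against 7.80, 8.35 and 7.58 in the control arrays. Every deficient array was above every control array, by 1.40 ± 0.270 on average (SE; limma, adjusted p = 0.0297), a 2.65-fold higher signal. Rnf216, a ligase known to ubiquitinate Beclin 1, had 6.61, 7.30 and 6.80 in the deficient arrays against 8.95, 8.79 and 7.99 in the control arrays. Every deficient array was below every control array, with a difference of -1.67 ± 0.292 (SE; limma, adjusted p = 0.0188), a 3.19-fold lower signal. The call for Nedd4l was lost without deficient array 1 or 2 or without control array 1 or 3, and that for Rnf216 without deficient array 1 or 3 or without control array 1 or 2. Without deficient array 2 and control array 1 together, the adjusted p was 0.0987 for Nedd4l and 0.0293 for Rnf216. By the methods' t-test the adjusted p was 0.246 for Nedd4l and 0.233 for Rnf216. The transcripts of their targets, Ulk1 (dim in both genotypes) and Becn1, had the values given above, with 95% intervals that included 0. These ligases act on the proteins, which were not measured.

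Among modifiers of the core machinery, 14 of 15 genes were measured, with 0 higher and 1 lower. Trp53inp1, whose protein binds LC3, had 12.07, 11.80 and 11.93 in the deficient arrays against 12.66, 12.82 and 12.71 in the control arrays. The genotypes were well apart and each was tight, but the difference of -0.80 ± 0.172 (SE; limma, adjusted p = 0.0483) was the smallest that passed, and the call was lost in 11 of 14 alternatives, with adjusted p up to 0.209, reached without deficient array 2 and control array 1 together. Rubcn, the Beclin 1 partner Rubicon that restrains the PI3K complex, had 5.48, 6.09 and 5.42 in the deficient arrays against 6.67, 6.64 and 6.31 in the control arrays, a difference of -0.88 (adjusted p = 0.104). Without the second deficient array its adjusted p was 0.0390.

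In fusion with the lysosome, 16 of 16 genes were measured and 0 were called. At an unadjusted p under 0.05 in limma, 0 were higher and 4 lower, 25% of the list against 7.62% of all probe sets lower. Groups did not overlap for 5 genes, each on the lower side, 31.3% against 9.97% of all probe sets. The list was mixed, with 7 positive and 9 negative differences, and Tecpr1 was the highest at 0.74 (limma, adjusted p = 0.435). Lamp2, a major protein of the lysosomal membrane, had 12.47, 12.41 and 11.98 in the deficient arrays against 12.99, 12.99 and 13.25 in the control arrays, a difference of -0.79 (95% interval -1.25 to -0.33; adjusted p = 0.0919). Snap29, the SNARE that pairs with syntaxin 17 on the autophagosome, had 8.91, 9.09 and 8.86 in the deficient arrays against 9.57, 9.62 and 9.56 in the control arrays, a difference of -0.63 (95% interval -1.01 to -0.25; adjusted p = 0.110). Neither pair of groups overlapped, and neither passed the adjusted test.

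Mitophagy and ER-phagy receptors had 13 of 15 genes measured and 0 called. Ccpg1, an ER-phagy receptor, averaged 8.12 ± 0.30 in the deficient arrays and 8.83 ± 0.16 in the control arrays (SD, n = 3 each), a difference of -0.70 (adjusted p = 0.150). Fundc1, a mitophagy receptor of the outer mitochondrial membrane, had 11.33, 11.02 and 11.02 in the deficient arrays against 11.93, 11.43 and 11.64 in the control arrays, a difference of -0.54 (adjusted p = 0.273). In both the highest deficient value lay below the lowest control value. Groups did not overlap for 5 of the 13 genes, each on the lower side, 38.5% against 9.97% of all probe sets.

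Nutrient sensing and transcriptional control had 21 of 21 genes measured and 0 called. Rragd, a Rag GTPase that brings mTORC1 to the lysosome, had 6.05, 6.57 and 5.95 in the deficient arrays against 7.42, 6.86 and 7.15 in the control arrays, a difference of -0.95 (adjusted p = 0.0808, and 0.0449 without the second deficient array). Rptor, the scaffold of mTORC1, the kinase complex that restrains ULK1, had 7.04, 7.63 and 7.53 in the deficient arrays against 8.33, 8.08 and 8.07 in the control arrays, a difference of -0.76 (adjusted p = 0.123). Both were apart between genotypes and did not pass. Groups did not overlap for 3 of the 21 genes, each on the lower side, 14.3% against 9.97% of all probe sets.

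As a check of the labels, Ube2f had 9.70, 9.72 and 9.82 in the deficient arrays against 11.91, 11.82 and 11.90 in the control arrays, a difference of -2.13 (adjusted p = 0.000263). Ube2m was not analysed here, and the sources used here do not place the probes of Ube2f inside or outside the deleted stretch. The sample titles name muscle while the other labels name Treg cells. The mean of 8 skeletal muscle markers was 4.09 to 4.24 in the deficient and 4.07 to 4.23 in the control arrays, with 7 of the 8 at or under the dim level, and that of 8 measured T cell markers was 15.10 to 15.28 in the deficient and 15.31 to 15.48 in the control arrays. Of 6 measured Treg markers, 5 had a negative difference and 2 (Ctla4 and Ikzf2) were called lower in the deficient arrays, and Foxp3 was not analysed here. Groups did not overlap on the lower side for 4 of the 6, 66.7% against 9.97% of all probe sets. Among these, Tnfrsf4 at -0.84 (limma, adjusted p = 0.0641) and Ikzf4 at -0.68 (limma, adjusted p = 0.178) did not pass. Il2ra lay the other way, with a difference of 0.60 and no overlap, and did not pass (limma, adjusted p = 0.135). Of the B cell, myeloid, CD8 and NK cell, and erythroid markers, 0 were called. The paper reports a very high purity for its sorted cells. A test between genotypes cannot show other cells in single arrays. The NK cell marker Klrb1c had 5.06, 7.71 and 5.03 in the deficient arrays against 6.98, 5.01 and 5.79 in the control arrays. Its highest arrays were those set apart on the second principal component. Cd8b1 averaged 8.83 in the deficient and 8.28 in the control arrays, above the dim level. All 6 CD8 and NK cell differences were positive, 4 of them in dim markers. So were 9 of 10 in the myeloid list, whose means were all dim, and 3 of 3 in the erythroid and platelet list. In the B cell list 2 of 5 were positive. Lyz2, a myeloid marker, was at 0.90 (limma, adjusted p = 0.308). Whether the differences in Treg markers, or the signals of other cell types, bear on the members' values was not tested.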

How the data were processed

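Log2 signals per probe set, to 2 decimals, were deposited by the authors, who scanned the Clariom S arrays and processed them with Affymetrix Expression Console 1.4. How probes were summarised, and on which genome build, the sources used here do not state; the log base was read from the values (2.06 to 19.9). Gene names came from the platform annotation, which named 19572 of 22206 probe sets. All 22206 were fitted without further normalization, on all 6 samples with genotype as the only term, with limma 3.58.1 in R 4.3.3 (lmFit and eBayes, Benjamini-Hochberg, threshold 0.05), checked on simulated data. The study's thresholds (p under 0.05 and fold over 1.5), applied here with a two-tailed t-test, were an alternative, by which 0 members and 6.74% of all probe sets passed. The study reports more changed genes than this at its thresholds, so its calls were not reproduced. With the limma p in place of the t-test, Gabarap (1.53-fold lower, unadjusted p = 0.0300) passed both thresholds. The number of arrays limits the precision. Quantile normalization, median centring, a filter on dim probe sets, a variance trend, replicate block, mean of probe sets and each array left out were the other alternatives. The members and lists were chosen with earlier results of these data known. Members with an unadjusted p under 0.05 were named with every array's value, as were up to 2 members per role and up to 2 related genes per list with the lowest p. Atg3, Atg14, Atg5, Map1lc3b, Sqstm1 and Atg4b were named with such values after these had been seen. Promoters came from RefSeq (GRCm38.p6). The arrays' values were the only file used.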

Additional observations from a re-analysis of the deposited data

How the results depend on the processing

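No member was called, higher or lower, under any of the 14 alternatives, and the members' median difference lay between -0.04 and 0.07. Over all alternatives, 32 values of single members changed sign, and Atg14, at 0, lay between -0.0917 and 0.0983. Median centring gave -0.0233 for Atg3 and -0.0133 for Pik3c3, quantile normalization gave 0.0569 for Atg4b, 0.0864 for Sqstm1, 0.0694 for Tfeb and 0.0628 for Wipi2, and dropping deficient array 2 and control array 1 at once, a setting chosen after seeing the data, gave 0.04 for Nbr1. Leaving out 1 array at a time gave ranges of -0.0367 to 0.430 for Atg16l1, -0.0567 to 0.0733 for Atg3, -0.035 to 0.065 for Atg4a, -0.0633 to 0.0067 for Atg4b, -0.427 to 0.0283 for Atg5, -0.0217 to 0.343 for Becn1, -0.288 to 0.0667 for Gabarapl2, -0.26 to 0.0833 for Map1lc3a, -0.32 to 0.185 for Pik3c3, -0.123 to 0.147 for Sqstm1, -0.405 to 0.18 for Tax1bp1, -0.0667 to 0.0333 for Tfeb, -0.468 to 0.0917 for Ulk1 and -0.095 to 0.09 for Wipi2. Members with an unadjusted p under 0.05 numbered 4, against 2 after quantile normalization, 2 once the dimmest 40% of probe sets were left out, 0 by the methods' t-test, 2 without those 2 arrays together and 1 to 4 without 1 array; members without overlap numbered 4, against 2 after quantile normalization. Over all probe sets 129 were higher, against 1 by the t-test, 50 without those 2 arrays and 46 to 81 without 1 array, and 503 were lower, against 5 by the t-test and 269 to 431 without 1 array. Of the further genes, 1 was higher, against 0 by the t-test, 0 without those 2 arrays and 0 to 2 without 1 array, and 2 were lower, against 1 after quantile normalization or median centring, 0 by the t-test, 1 without those 2 arrays and 0 to 3 without 1 array. The fit with 1 array fewer has fewer samples, and the cause of the other changes was not tested.

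Deviations from the group means had correlations of -0.06, -0.24 and 0.29 between arrays of the same number in the labels. Between arrays of unlike number they reached 0.44 and -0.43 (control array 1 with deficient arrays 2 and 3). With 3 arrays per group, these values cannot decide whether the numbers pair the samples. With the replicate block, 70 probe sets were higher, 0 members were called, and of the further genes 0 were higher and 1 was lower.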
